A study of Mus musculus with 8 samples.

Results

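The tissue inhibitors of metalloproteinases (TIMPs) and the membrane-anchored inhibitor RECK were followed in primary murine articular chondrocytes exposed to IL-1β. The members were the rows of the deposited count table whose gene symbol was *Timp1*, *Timp2*, *Timp3*, *Timp4* or *Reck*, which gave 5 of 54658 genes. The 4 IL-1β samples received IL-1β at 1 ng/mL for 24 h and the 4 vehicle samples received vehicle for the same time. Both groups were chondrocytes isolated from the femoral head cartilage of wild-type mice aged 3 weeks. Strain, sex and the number of animals behind each culture are not given in the sources used here. Nothing in those sources says that the 4 samples of a group came from separate cultures, so that p-values measure the spread between these samples, which may be technical.

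TIMPs are small secreted proteins that block matrix metalloproteinases (MMPs) by binding to their active site, and an excess of enzyme over inhibitor is a classical description of cartilage breakdown in osteoarthritis. The family members differ in what they inhibit. TIMP1 acts on most secreted MMPs and poorly on membrane-type MMPs, TIMP2 both inhibits MMP14 and helps it to activate pro-MMP2, and TIMP3 stays bound to the extracellular matrix and also inhibits the aggrecanases ADAMTS4 and ADAMTS5 and the TNF convertase ADAM17. RECK is held on the cell surface by a lipid anchor, restrains MMP2, MMP9, MMP14 and ADAM10, and serves as a co-receptor for WNT7 ligands.

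After IL-1β, *Timp1* rose, *Timp3* and *Reck* fell and *Timp2* was not called. *Timp4* was nearly absent in both groups. The fall of *Timp3* was the largest change among the 4 members tested. Per length, *Timp3* led the inhibitor transcripts in vehicle and *Timp1* led with IL-1β. Without division by length, *Timp3* led in both groups. The lengths used include a stretch of *Timp3* shared with *Syn3*, whose reads may not have been counted. A length that leaves it out would raise the level of *Timp3* per kb, and the order with such a length was not tested. The lead of *Timp1* with IL-1β therefore holds only for the lengths used here. Of the 4 members tested, 3 passed an adjusted p of 0.05, beside 40.2% of all 14404 genes tested. By direction, 1 member was higher, beside 20.4% of all genes, and 2 were lower, beside 19.8%. With a log2 fold change beyond 1 required as well, 1 member remained a differentially expressed gene (DEG), beside 5.21% of all genes. The median log2 fold change of the 4 members was -0.33, and that of all genes tested was -0.0012.

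The total per sample was 10992355 to 17456063 counts. Counts were scaled with edgeR's TMM factors, and abundances are given as TMM-scaled CPM, the count relative to the size of the library, as mean ± SD of 4 samples. On this scale 3 counts correspond to 0.173 to 0.27 CPM. Unless another test is named, adjusted p-values are from edgeR's quasi-likelihood test with Benjamini-Hochberg adjustment over the 14404 genes whose CPM exceeded 1 in 4 or more samples. The labelled cell type was checked on 8 chondrocyte markers, and all 8 passed the filter, with *Col2a1*, the main cartilage collagen, at 11191 ± 195 CPM in vehicle. In these bulk samples, fewer cells of a type and less RNA per cell cannot be told apart.

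The promoter sequences of *Timp1* and *Reck* differed in their features and are shown as a description. The 150 bases before the RefSeq start of each gene are shown on the gene's strand, with matches to the GC box GGGCGG, or to its reverse complement CCGCCC, in capitals. The stretch of *Timp1* is chrX:20870016-20870165 on the plus strand and that of *Reck* is chr4:43875380-43875529 on the plus strand (GRCm38.p6).
Timp1: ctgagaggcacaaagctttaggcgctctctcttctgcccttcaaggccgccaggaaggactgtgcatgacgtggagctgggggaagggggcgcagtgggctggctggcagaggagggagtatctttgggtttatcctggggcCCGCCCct
Reck: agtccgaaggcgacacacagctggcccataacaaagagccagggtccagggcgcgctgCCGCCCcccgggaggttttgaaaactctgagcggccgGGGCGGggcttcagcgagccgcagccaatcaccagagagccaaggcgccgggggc
In the 300 bases from 250 before to 50 after the start, the GC box was found on either strand once in *Timp1*, once in *Timp2*, 2 times in *Timp3*, 3 times in *Reck* and 0 times in *Timp4*. Of 32544 mouse promoters of this length, 35.9% held it. GC content was 55.0% in *Timp1*, 68.7% in *Timp2*, 67.0% in *Timp3*, 53.3% in *Timp4* and 69.3% in *Reck*, and the median over all promoters was 53.0%. *Timp2*, *Timp3* and *Reck* held 25, 24 and 23 CpG dinucleotides, while *Timp1* held 8 and *Timp4* held 2, beside a median of 7. Of the 5 members, *Timp1* was the one with the letters TGAGTAA, a variant of the AP-1 motif, at chrX:20870192-20870198, which is 27 to 33 bases after its RefSeq start. The match is shown in capitals with 8 bases on each side.
Timp1 AP-1 variant: tgggtggaTGAGTAAtgcgtcca
This variant was present in 2.64% of all promoters. The AP-1 motif TGANTCA (7.79% of promoters), the TATA box TATAAA (13.6%), the STAT motif TTCNNNGAA (8.33%), the kappa B motif (8.49%) and the ETS core CCGGAAG (8.91%) had no match in the 300 bases of any member, on either strand. No protein binding was measured in these samples, and a link between these features and the changes in level was not tested.

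*Timp3*, *Reck* and *Timp2* shared a sequence feature in their 3′ UTRs. Because the study was concerned with a microRNA, miR-146a-5p, its seed matches were searched together with those of miR-21a-5p, a microRNA known to bind *Timp3* and *Reck*. The mature sequences from RefSeq are shown with the seed (bases 2 to 8) in capitals.
mmu-miR-146a-5p: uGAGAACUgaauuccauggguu
mmu-miR-21a-5p: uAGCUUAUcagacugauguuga
The sites in the longest coding transcript of each member (GENCODE vM21) are shown with the match in capitals and 8 bases on each side. That of *Timp3* lies at chr10:86348227-86348234 on the plus strand, that of *Reck* at chr4:43944407-43944414 on the plus strand, and that of *Timp2* at chr11:118302340-118302346 on the minus strand.
Timp3 miR-21a-5p site: agctttcaATAAGCTAtagctttg
Reck miR-21a-5p site: agtttgaaATAAGCTAttaatgta
Timp2 miR-21a-5p site: cttaaaaaATAAGCTgtcccaag
The sites of *Timp3* and *Reck* were 8mers with the same 8 letters, and that of *Timp2* was a 7mer. *Timp1*, whose 3′ UTR has 101 bases, had no miR-21a-5p site and neither had *Timp4*. Such a site was present in 12.7% of 11902 3′ UTRs. For miR-146a-5p, a site was found in *Timp4* alone, at chr6:115246233-115246239 on the minus strand, and none in *Timp1*, *Timp2*, *Timp3* or *Reck*.
Timp4 miR-146a-5p site: accaagccAGTTCTCtgtggtcc
A miR-146a-5p site was present in 20.8% of 3′ UTRs. The levels of these microRNAs were not analysed here.

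*Timp1* (ENSMUSG00000001131.11, chrX:20870166-20874735, plus strand, GRCm38) encodes the inducible, freely secreted member of the family. Its abundance was 665, 653, 667 and 696 CPM in the 4 IL-1β samples and 460, 456, 471 and 451 CPM in the 4 vehicle samples. The groups did not overlap. The mean went from 460 ± 8.77 CPM to 670 ± 18.1 CPM, a 1.46-fold higher level (log2 fold change 0.54, SE 0.0305, adjusted p = 7.28e-15). *Timp1* thus passed the adjusted p but not the fold change that defines a DEG. Among the genes tested it moved from rank 238 to rank 130 by mean CPM.

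*Timp3* (ENSMUSG00000020044.13, chr10:86300372-86349506, plus strand) encodes the matrix-bound inhibitor of MMPs and aggrecanases. In vehicle it was among the most abundant transcripts of these cells, at rank 7 of all genes tested, with 5802, 6084, 6159 and 6324 CPM. In IL-1β samples it had 2386, 2571, 2633 and 2603 CPM and stood at rank 17. The lowest vehicle sample was far above the highest IL-1β sample. The mean fell from 6092 ± 218 CPM to 2548 ± 111 CPM, a 2.39-fold lower level (log2 fold change -1.26, SE 0.0292, adjusted p = 5.44e-24). *Timp3* was the DEG among the members, and 201 of 14404 genes had a lower log2 fold change.

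*Timp2* (ENSMUSG00000017466.9, chr11:118301069-118355740, minus strand) encodes the member that takes part in activating pro-MMP2. The IL-1β samples had 625, 648, 682 and 651 CPM and the vehicle samples 660, 696, 687 and 673 CPM, so that the groups overlapped. The means were 652 ± 23.4 and 679 ± 15.7 CPM. The log2 fold change was -0.0587 (SE 0.0313, adjusted p = 0.145), with a 95% confidence interval of -0.12 to 0.00565. The interval does not reach a change of the size seen in the other tested members in either direction. The call turned on 1 library: without IL-1β replicate 3, the log2 fold change was -0.0816 with an adjusted p of 0.0437.

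*Reck* (ENSMUSG00000028476.13, chr4:43875530-43944806, plus strand) encodes the cell-surface inhibitor. The IL-1β samples had 107, 114, 116 and 115 CPM and the vehicle samples 163, 170, 179 and 175 CPM. The groups did not overlap. The mean fell from 172 ± 6.91 CPM to 113 ± 4.39 CPM, a 1.52-fold lower level (log2 fold change -0.60, SE 0.0344, adjusted p = 1.27e-14). Like *Timp1*, *Reck* passed the adjusted p but was not a DEG. In all, 3 of the 4 members tested had groups that did not overlap, beside 36.8% of all genes tested.

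*Timp4* (chr6:115241892-115252205, minus strand) encodes a TIMP best known from heart and brain. It had 0, 3, 1 and 1 counts with IL-1β and 4, 2, 5 and 2 counts with vehicle. *Timp4* did not pass the filter and was not tested. At these totals, a difference between the groups was not detectable.

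**Figure D1:**
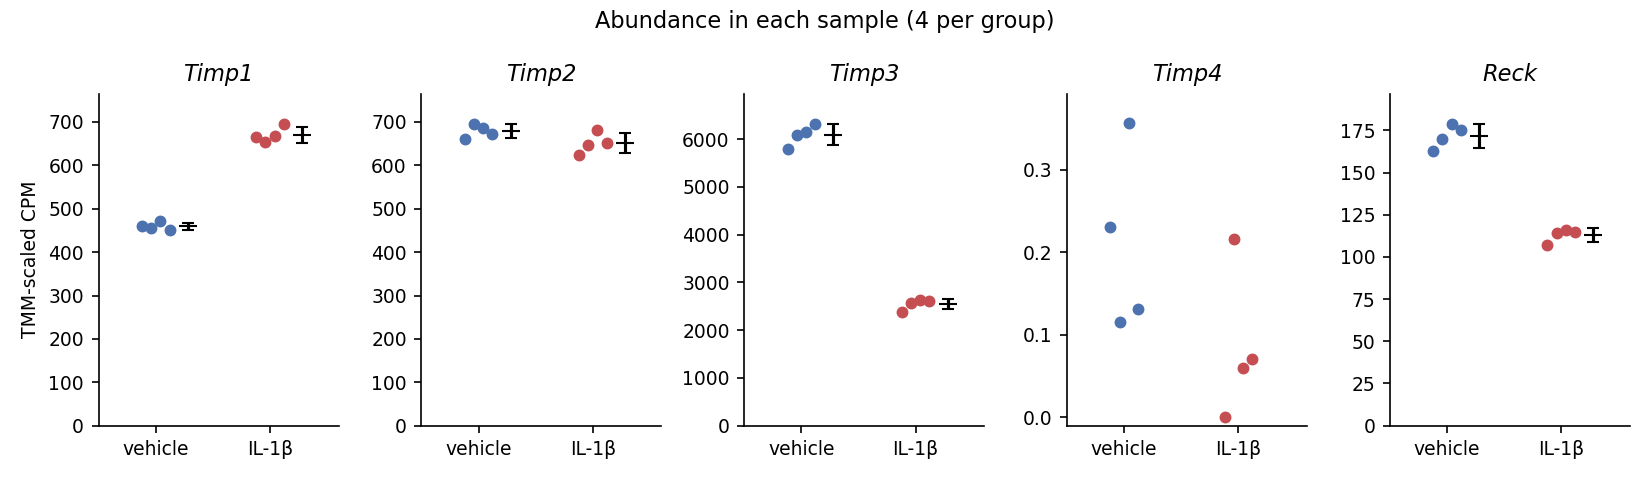
TMM-scaled CPM (y axis, starting at 0 except for *Timp4*, each gene on its own scale) of the 5 inhibitors in the 4 vehicle samples (blue) and the 4 IL-1β samples (red), with mean ± SD in black except for *Timp4*, which had at most 5 counts per sample. *Timp1* is higher in every IL-1β sample, *Timp3* and *Reck* are lower in every IL-1β sample, and the groups of *Timp2* overlap.

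To compare levels between genes, CPM was divided by the gene length listed beside the counts, in kilobases. Per length, *Timp3* led in vehicle with 748 ± 26.8 CPM per kb, followed by *Timp1* with 518 ± 9.88, *Timp2* with 174 ± 4.04, *Reck* with 35.9 ± 1.45 and *Timp4* with 0.0354 ± 0.0188. With IL-1β the order was *Timp1* with 755 ± 20.4 CPM per kb, *Timp3* with 313 ± 13.6, *Timp2* with 167 ± 6.01, *Reck* with 23.6 ± 0.918 and *Timp4* with 0.0147 ± 0.0156. With this length *Timp1* and *Timp3* had changed places at the top, and in both groups no neighbours in the order overlapped between samples. The order in each group was the same when the length of the longest coding transcript was used instead. With that length, *Timp3* and *Timp1* had 1290 ± 46.2 and 521 ± 9.94 CPM per kb in vehicle and 540 ± 23.5 and 759 ± 20.5 CPM per kb with IL-1β. Both lengths include 1733 bases that *Timp3* shares with *Syn3*. All 1733 lie within the 4722 bases of the longest coding transcript of *Timp3*. Reads from that stretch may not have been counted, and a length that leaves it out would raise the level of *Timp3* per kb. The order with such a length was not tested, so the lead of *Timp1* with IL-1β holds only for the lengths used here. Without division by length, *Timp3* led *Timp1* in both groups, with 6092 against 460 CPM in vehicle and 2548 against 670 CPM with IL-1β.

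The make-up of the 5 inhibitor transcripts shifted accordingly. As a share of the summed CPM per kb of the 5 members, *Timp3* made up 49.7 to 52.0% in the vehicle samples and 23.9 to 25.4% in the IL-1β samples. *Timp1* made up 34.0 to 36.1% in vehicle and 59.0 to 61.1% with IL-1β. *Timp2*, whose own level was not called different, made up 11.6 to 12.1% in vehicle and 12.9 to 13.8% with IL-1β, and *Reck* made up 2.38 to 2.49% and 1.82 to 1.92%. The summed level was 1434, 1475, 1501 and 1493 CPM per kb in vehicle and 1225, 1242, 1274 and 1294 CPM per kb with IL-1β, so that the groups did not overlap and the mean with IL-1β was 0.853 of that with vehicle. With the length of the longest coding transcript, this ratio was 0.738, and without division by length, where *Timp3* weighs most, it was 0.538. Without division by length the share of *Reck* went the other way, from 2.32 to 2.84% in the mean, and that of *Timp1* went from 6.21 to 16.8%. With the length of the longest coding transcript, the mean shares of *Timp3* were 63.5% and 36.0%. Shares and sums are given as a description, without a test.

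**Figure D2:**
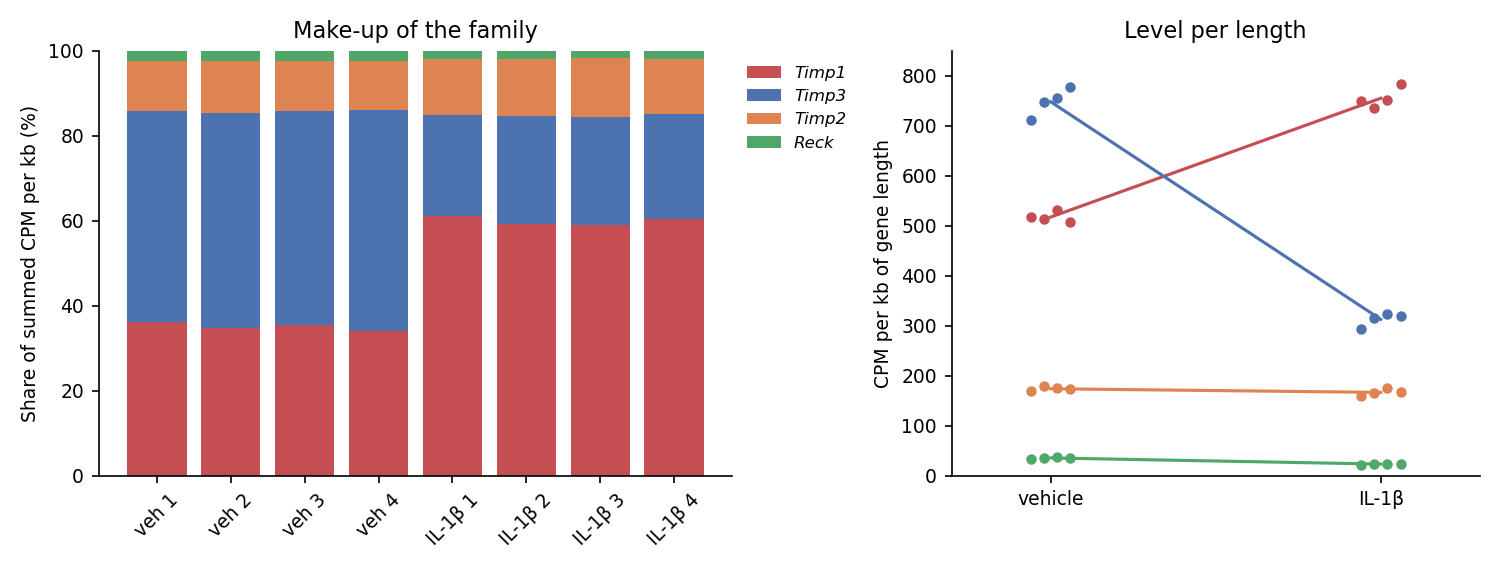
Left, share (%) of each inhibitor in the summed CPM per kb of the 5 members, one bar per sample, with *Timp4* too small to be seen. Right, CPM per kb in each sample (points) and group means (joined by lines). *Timp1* takes 34.0 to 36.1% in vehicle and 59.0 to 61.1% with IL-1β, and the lines of *Timp1* and *Timp3* cross.

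Ratios of inhibitors within a sample do not depend on the scaling of the library. The ratio of *Timp1* to *Timp3* per kb rose from 0.692 (range 0.654 to 0.727) in vehicle to 2.41 (range 2.32 to 2.56) with IL-1β, a difference of 1.80 on the log2 scale (SE 0.046). The 6 ratios among the 4 members tested all differed between the groups without overlap (exact permutation test, two-sided, p = 0.0286 for each, the smallest that 4 against 4 samples allow, and 0.0286 after adjustment over the 6 ratios). These ratios share genes and are not independent of each other. Each holds *Timp1*, *Timp3* or *Reck*, whose groups did not overlap on their own, so the count was not a separate result. The share of such ratios among other genes was not computed. The log2 ratio of *Timp1* to *Reck* differed by 1.15, that of *Timp2* to *Timp3* by 1.20, that of *Timp1* to *Timp2* by 0.60 and that of *Timp2* to *Reck* by 0.54, each higher with IL-1β. Although both *Timp3* and *Reck* fell, *Timp3* fell further, and the ratio of *Timp3* to *Reck* went from 20.8 to 13.2, a log2 difference of -0.65.

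The enzymes that these inhibitors restrain were described from lists of the secreted MMPs, membrane-type MMPs, ADAMs and ADAMTS proteases. Of 16 secreted MMPs, 6 were tested, 4 were higher after IL-1β, 1 was lower and 1 was not called, and their median log2 fold change was 1.71. *Mmp3*, which encodes stromelysin-1, rose 44.7-fold, from 23.6 to 1055 CPM (log2 fold change 5.48, SE 0.0506, adjusted p = 1.12e-33). *Mmp12*, which encodes macrophage elastase, rose 11.7-fold, from 0.264 to 3.18 CPM (log2 fold change 3.55, SE 0.278, adjusted p = 1.31e-11), and its vehicle samples had 2 to 6 counts. *Mmp12* entered the test through its IL-1β samples only, so that it had to differ, and without it 3 of 5 were higher and the median was 0.71. *Mmp13*, the major collagenase of cartilage, rose 6.57-fold (log2 fold change 2.71, adjusted p = 1.02e-28), and *Mmp2*, which encodes gelatinase A, rose 1.63-fold (log2 fold change 0.71, adjusted p = 5.38e-14). *Mmp9*, which encodes gelatinase B, had 6 to 14 counts in each group and was not tested.

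Of 7 membrane-type MMPs, 3 were tested, none was higher, 1 was lower and 2 were not called. *Mmp14*, the activator of pro-MMP2 that TIMP2 and RECK both bind, was not called, at a log2 fold change of 0.0727 (adjusted p = 0.233, 95% confidence interval -0.023 to 0.17), and *Mmp16*, another membrane-type MMP, fell (log2 fold change -0.51, adjusted p = 4.1e-07). Of 9 ADAMs, 7 were tested, 4 were higher and 1 was lower. *Adam12* rose most (log2 fold change 1.45, adjusted p = 4.57e-12) and *Adam15* fell (log2 fold change -0.50, adjusted p = 7.45e-09). The known clients of TIMP3 and RECK, *Adam17* and *Adam10*, were higher by 0.30 and 0.16 on the log2 scale (adjusted p = 2.27e-07 and 0.00673). *Adam10* was no longer called without vehicle replicate 1 (log2 fold change 0.11, adjusted p = 0.0539), which left 3 ADAMs higher. Of 19 ADAMTS proteases, 10 were tested, 2 were higher, 5 were lower and 3 were not called, with a median of -0.28. The 2 that rose were *Adamts7*, which encodes a protease that can cleave COMP (log2 fold change 2.68, adjusted p = 2.42e-10), and the aggrecanase *Adamts5* (log2 fold change 0.89, adjusted p = 6.74e-15). Of the 5 that were lower, *Adamts1* fell most, from 101 to 61.9 CPM (log2 fold change -0.70, adjusted p = 8.55e-15). The summed level of the ADAMTS list was 184 to 190 CPM in vehicle and 161 to 170 CPM with IL-1β. *Adamts7* had 7 to 11 counts in vehicle and entered the test through its IL-1β samples only, and without it 1 of 9 was higher and the median was -0.33. *Adamts4*, the other main aggrecanase, had 3 to 7 counts with IL-1β and 3 to 10 counts with vehicle.

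**Figure D3:**
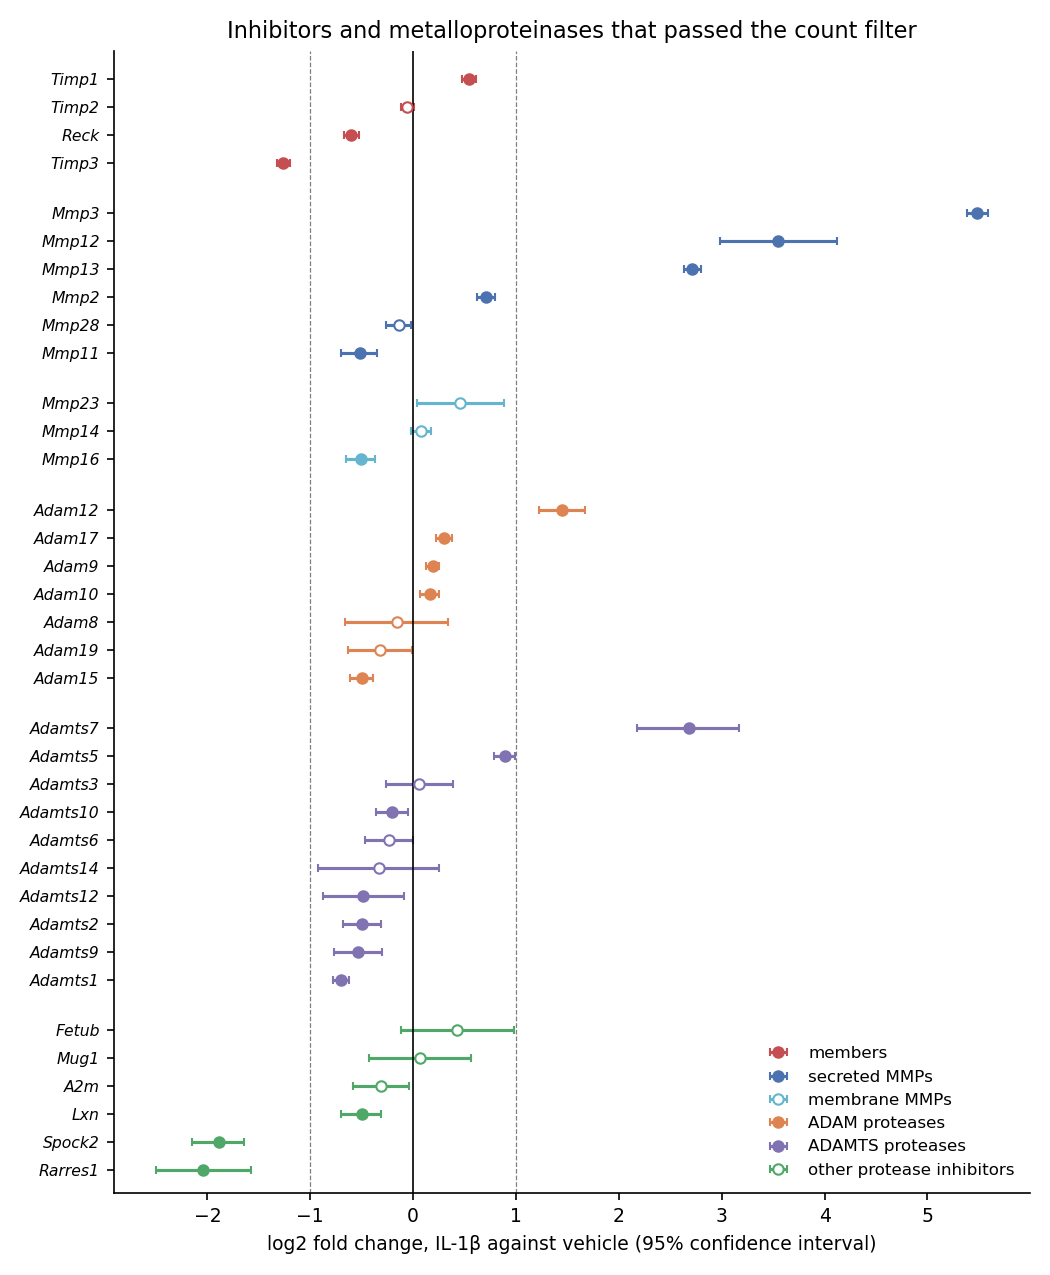
log2 fold change of IL-1β against vehicle (x axis) with its 95% confidence interval for each inhibitor and metalloproteinase gene that passed the count filter, grouped by list. Filled points had an adjusted p under 0.05, and dashed lines mark a log2 fold change of 1 in either direction. *Timp1* lies at 0.54 and *Timp3* at -1.26, while *Mmp3* lies at 5.48.

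The level of an enzyme was then set against that of an inhibitor known to act on it, as the ratio of their CPM per kb within each sample. These are ratios of transcripts, and the proteins were not measured. For 8 of the 10 ratios the groups did not overlap and the ratio was higher with IL-1β (exact permutation test, two-sided, p = 0.0286 for each, adjusted p = 0.0358 over the 10 ratios). Except for *Mmp14* to *Timp2*, each of these 8 held a gene whose groups did not overlap on its own. The count was therefore not a separate result, and the share of such ratios among other genes was not computed. *Mmp3* to *Timp1* went from 0.0252 (range 0.0237 to 0.0269) in vehicle to 0.775 (range 0.708 to 0.847) with IL-1β, a 30.7-fold higher ratio in spite of the rise of *Timp1*. *Mmp13* to *Timp1* rose 4.52-fold, from 0.0232 to 0.105. For *Adamts5* and *Adam17*, the ratio to *Timp3* combined a higher enzyme with a lower inhibitor. *Adamts5* to *Timp3* rose 4.42-fold, from 0.00383 to 0.0169, while *Adamts5* itself rose 1.86-fold, and *Adam17* to *Timp3* rose 2.94-fold, while *Adam17* itself rose 1.23-fold.

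For *Reck*, the ratios of *Mmp14* and *Adam10* rose 1.59-fold and 1.69-fold, and most of each difference lay in *Reck*, since *Mmp14* was not called and *Adam10* was 1.12-fold higher. *Mmp2* to *Timp2* rose 1.70-fold, with *Timp2* not called. The smallest of the 8 differences was that of *Mmp14* to *Timp2*, a 1.09-fold higher ratio, although neither gene was called on its own. This ratio went from 0.0574 (range 0.0543 to 0.0591) in vehicle to 0.0626 (range 0.0595 to 0.0645) with IL-1β, so that the groups nearly touched. The other 2 ratios rested on low counts of the enzyme and the groups overlapped. The log2 ratio of *Mmp9* to *Timp1* differed by -0.23 (SE 0.438, exact permutation p = 0.657) and that of *Adamts4* to *Timp3* by 1.04 (SE 0.535, exact permutation p = 0.114, adjusted p = 0.127).

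**Figure D4:**
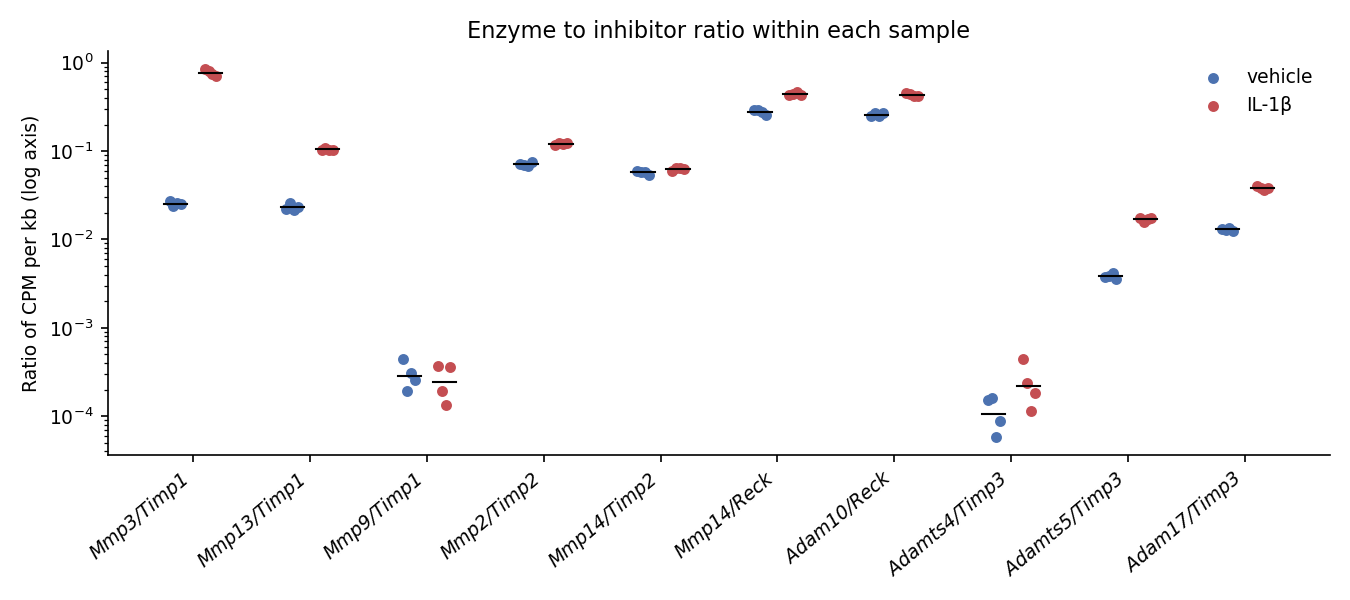
Ratio of enzyme to inhibitor, as CPM per kb within each sample (y axis, log scale), for 10 enzyme and inhibitor combinations in vehicle (blue) and IL-1β (red) samples, with the geometric mean as a black line. *Mmp3* to *Timp1* goes from 0.0252 to 0.775, and the groups overlap for *Mmp9* to *Timp1* and *Adamts4* to *Timp3*.

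Other protease inhibitors and proteins related to them were examined as a list of 13 genes. Of these, 6 were tested, none was higher and 3 (50.0%) were lower, beside 20.4% higher and 19.8% lower over all genes tested. Whether each listed protein inhibits a protease was not tested, so the genes that fell are not a count of inhibitors lost. *Rarres1*, which encodes a latexin-like membrane protein, went from 3.23 to 0.788 CPM (log2 fold change -2.04, adjusted p = 1.28e-08). It had 8 to 15 counts with IL-1β and entered the test through its vehicle samples only, and without it 2 of 5 were lower. *Spock2*, which encodes the extracellular proteoglycan testican-2, went from 16.1 to 4.22 CPM (log2 fold change -1.89, adjusted p = 3.54e-13), and *Lxn*, which encodes the carboxypeptidase inhibitor latexin, was lower by a log2 fold change of -0.50 (adjusted p = 8.68e-05). *A2m*, which encodes the broad protease trap α2-macroglobulin, was at -0.31 on the log2 scale (adjusted p = 0.0644), its relative *Mug1* had 0.0631 (adjusted p = 0.869) and *Fetub*, a cystatin-family inhibitor, had 0.43 (adjusted p = 0.216). The highest group mean among these 6 was 16.1 CPM, that of *Spock2* in vehicle, while *Timp1*, *Timp2*, *Timp3* and *Reck* had 113 CPM or more. *Pzp*, *Mug2*, *Tfpi2*, *Papln*, *Spock1*, *Spock3* and *Ahsg* did not pass the filter.

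Of 10 listed receptors and partners of the inhibitors, 8 were tested, 2 were higher, 2 were lower and 4 were not called. That is 50.0% called, beside 40.2% of all genes tested. None was a DEG, beside 5.21% of all genes, so the lack of a DEG among 8 genes is not a result about them. *Lrp1*, the endocytic receptor that clears TIMP3 from the matrix, went from 2059 to 2512 CPM (log2 fold change 0.29, adjusted p = 4.47e-10). *Cd63*, which encodes a tetraspanin that binds TIMP1, was at -0.0305 on the log2 scale (adjusted p = 0.502). *Itgb1* and *Itga3*, subunits of the α3β1 integrin that binds TIMP2, had -0.0849 (adjusted p = 0.032, lower) and -0.00926 (adjusted p = 0.875). The call of *Itgb1* was lost when any of IL-1β replicates 3 and 4 and vehicle replicates 2 and 4 was left out (adjusted p up to 0.116). *Efemp1*, which encodes a TIMP3-binding fibulin, was not called (log2 fold change 0.18, adjusted p = 0.31), and *Kdr*, the VEGF receptor that TIMP3 can block, had 0 to 4 counts.

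The genes that act with RECK in WNT7 signalling differed in direction. The ligand *Wnt7b* fell from 5.59 to 3.05 CPM (log2 fold change -0.89, adjusted p = 2.02e-05), the receptor *Fzd4* rose (log2 fold change 0.32, adjusted p = 0.00897), the co-receptor *Adgra2* was not called (log2 fold change 0.0723, adjusted p = 0.422) and *Wnt7a* had 1 to 8 counts.

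Each of the Timp genes overlaps another gene. *Timp1*, *Timp3* and *Timp4* lie within *Syn1*, *Syn3* and *Syn2*, genes of the synapsin family, on the opposite strand, and *Timp2* contains *Cep295nl* on its own strand. No exon base of *Timp1*, *Timp2* or *Reck* was shared with another gene in the annotation, whereas 1733 exon bases of *Timp3* (21.3%) were shared with *Syn3* and 90 of *Timp4* (1.53%) with *Syn2*. The strandedness of the libraries is not given in the sources used here, and without strand, reads from the shared stretch of *Timp3* and *Syn3* cannot be told apart. *Syn1* went from 3.51 to 6.11 CPM (log2 fold change 0.79, adjusted p = 7.81e-05), and *Syn3* from 13.7 to 7.65 CPM (log2 fold change -0.85, adjusted p = 8.04e-09). Both therefore changed in the direction of the TIMP gene they contain, at abundances far below it. *Cep295nl* was not called, as was the case for *Timp2* (log2 fold change 0.0303, adjusted p = 0.859), *Syn2* had 1 to 9 counts, and *Araf*, the gene beside *Syn1*, was lower (log2 fold change -0.18, adjusted p = 0.000382). The part of reads from unspliced or antisense RNA in these values was not tested.

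**Figure D5:**
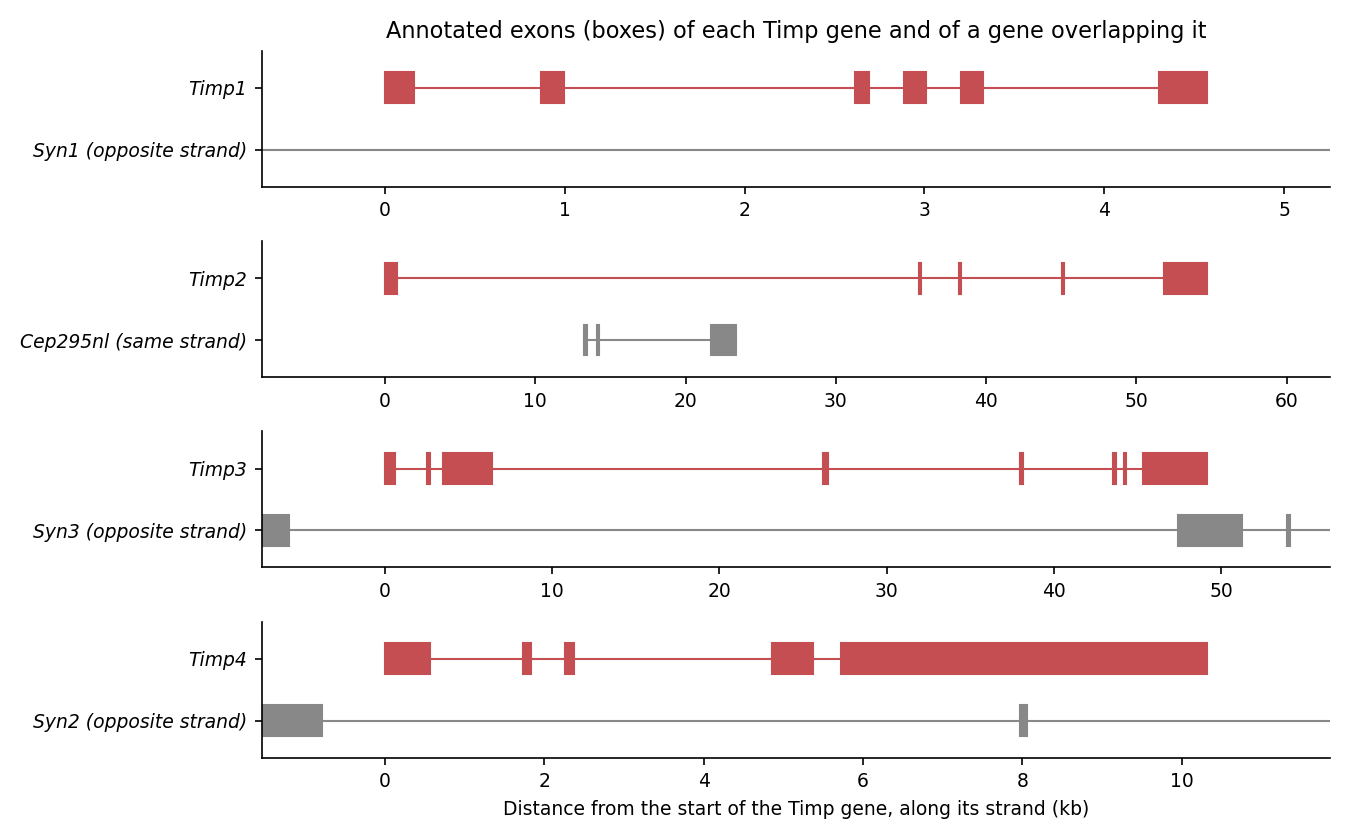
Annotated exons (boxes) along each Timp gene (red) and 1 gene that overlaps it (grey), drawn against distance in kb from the start of the Timp gene along its strand. The last exon of *Timp3* overlaps an exon of *Syn3*, while the exons of *Timp1* lie where *Syn1* has none.

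The decrease of *Timp3* and *Reck* came together with a decrease of chondrocyte markers. All 8 chondrocyte markers were lower after IL-1β, all of them as DEGs, and their summed level was 3698 to 4067 CPM with IL-1β and 14702 to 15272 CPM with vehicle. Over all genes tested, 20.4% were higher, 19.8% were lower and 5.21% were DEGs. Of 6 fibroblast and synovial markers, 3 were tested and all 3 were higher, with a summed level of the list of 85.1 to 89.9 CPM with IL-1β and 43.4 to 46.4 CPM with vehicle. *Pdpn*, which encodes podoplanin, had the largest of these changes (log2 fold change 2.26, adjusted p = 4.85e-19), and *Thy1*, *Clic5* and *Dpt* did not pass the filter. Of 8 macrophage and leukocyte markers, 2 passed the filter, 1 of them higher and 1 lower, with sums of 15.9 to 19.3 CPM and 11.7 to 13.0 CPM, most of it *Cd68*, and *Adgre1*, *Itgam* and *Tyrobp* had at most 3 counts in every sample. None of 5 endothelial markers passed, with sums of 1.06 to 1.66 CPM and 0.865 to 1.71 CPM. Of 6 osteoblast and bone marrow markers, 3 were tested and 2 were lower, with sums of 26.1 to 31.3 CPM and 69.8 to 79.4 CPM. The part of such shifts in the levels of the inhibitors was not tested.

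The genes most like each member across the 8 samples, by Pearson's r of log2 CPM, are named as a description. The points share their libraries and fall into the 2 treatment groups, so that any gene with a clear change of the same direction has a high r, and 880 of the genes tested had an r above 0.95 with *Timp3*. For *Timp3* they were *Rab11fip4* (r = 0.9996), *Pth1r* (r = 0.9993), which encodes the parathyroid hormone receptor, and the imprinted non-coding RNA *H19* (r = 0.9992), which fell from 618 to 42.8 CPM. For *Timp1* they were *Tsc22d1* (r = 0.9993), *Mafg* (r = 0.9986) and the muscle-type glycogen synthase *Gys1* (r = 0.9985). For *Reck* they were *Auts2* (r = 0.9977), *Fn1* (r = 0.997), which encodes fibronectin, and *Actg1* (r = 0.9969), which encodes γ-actin. For *Timp2*, which did not separate the groups, 3 genes had an r above 0.95, and they were *Tob1* (r = 0.965), *Hsbp1* (r = 0.965) and *Csnk2b* (r = 0.9589), none of which was called between the groups.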

How the data were processed

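RNA-Seq of 4 IL-1β and 4 vehicle samples was used, grouped by the treatment in the labels. Reads had been trimmed (cutadapt), aligned to mm10 with GENCODE annotation (STAR, 2.4.2a in the submitters' processing notes, another version in the methods) and assigned to genes (featureCounts). The authors deposited raw, whole-number counts per gene symbol and, as another column, gene lengths in bases (unit: other). Whether the counts precede the RUVseq batch correction named in the methods is not stated, and they were used as deposited. The miRNA-Seq was not analysed here.

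The 14404 genes whose CPM exceeded 1 in 4 or more samples were scaled by TMM and entered the quasi-likelihood test of edgeR 4.0.16 (R 4.3.3, limma 3.58.1), with treatment as the only term and 20.9 prior degrees of freedom. DEGs had an adjusted p under 0.05 and a log2 fold change beyond 1 in either direction, the thresholds in the study's methods for differential expression. For the list of genes it reported and used for pathways, the study states a log2 fold change above 2, a size that *Timp3* did not reach here. That list holds more genes than the 751 DEGs found here with the lower threshold. Whether it held *Timp3* therefore cannot be told. In a test on simulated counts (14404 genes, 200 of them changed), edgeR recovered 100% with 10 false calls and DESeq2 recovered 100% with 2, and edgeR made 0 calls where none was changed. The changed genes were taken from those with higher counts and had log2 fold changes of 1 or more in size, at a common dispersion. Recovery of smaller changes and at low counts was not tested. Ratios within samples were compared by exact permutation tests in Python 3.11.15 (scipy 1.17.1, numpy 2.4.6, pandas 2.3.3, matplotlib 3.10.9). Gene models came from GENCODE vM21 (98.8% of symbols matched 1 gene, 98.5% of these with the listed length), and promoters and mature microRNAs from RefSeq. Seed sites were matches to bases 2 to 8, or to bases 2 to 7 followed by A. All 5 members matched a promoter. Confidence intervals and standard errors of fold changes come from edgeR's fit and include the spread between samples. The limit of 3 counts reflects counting error alone, because PCR copies were not marked by molecular identifiers.

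The members and gene lists were chosen with earlier results of these data known. Named genes were the members, the enzymes of the ratios, the 2 genes with the largest called change in each protease list (1 where 1 was called), every gene of the lists of other inhibitors, partners and overlapping genes, and the 3 genes with the highest Pearson's r to each member. *Adamts1*, *Col2a1*, *Cd68*, *Pdpn* and other markers were named after their values were seen. Replicates of a group differed by more than sampling noise (chi-square per degree of freedom 1.98 to 6.34). Alternatives were DESeq2 1.42.0, its size factors or the library size alone for scaling, other filters, the replicate number as a block, 1 RUVs factor, other lengths, 0.5 added to each count in ratios, each sample left out in turn and, added after seeing the data, library sizes without the most abundant gene and the length of the longest coding transcript.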

Additional observations from a re-analysis of the deposited data

Results flagged for a closer look

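No member had a sample standing apart from the rest of its group. Of 98 groups of 4 samples compared among the members and the listed genes, 5 had a sample whose gap to its nearest neighbour was above the 95% critical value of Dixon's ratio, and chance flags about 1 in 20 groups, which is 4.9 of 98. Vehicle replicate 3 was the sample in 4 of these. It had 2.35 CPM of *Adam8* (others 1.27 to 1.38), 0.927 CPM of *Adamts14* (others 1.21 to 1.25), 6.77 CPM of *Wnt7b* (others 5.02 to 5.32) and 9.41 CPM of *Cep295nl* (others 10.4 to 10.6). IL-1β replicate 3 had 2634 CPM of *Lrp1* (others 2463 to 2486). Without these samples, the log2 fold change was -0.79 for *Wnt7b* and 0.26 for *Lrp1*, and both were still called, while *Adam8*, not called in either case, went from -0.16 to 0.0695.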

How the results depend on the processing

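*Timp1*, *Timp3* and *Reck* kept their direction and their call in all 16 alternatives, with log2 fold changes of 0.53 to 0.55, -1.28 to -1.23 and -0.63 to -0.58. *Timp2* ranged from -0.0816 to -0.0411 with 1 sample left out and was called in 1 of 16 alternatives. The replicate numbers did not mark pairs (correlations of same-numbered samples -0.0611 to 0.0327), and with the replicate block *Timp1* had a log2 fold change of 0.54, *Timp2* -0.0594, *Timp3* -1.26 and *Reck* -0.60, and genes called over the whole table went from 5796 to 5643. Genes called by DESeq2 were 4937, and DEGs were 751 by edgeR, 1206 with no filter on low counts. With 1 sample left out, the number called lower was 1 to 2 for secreted MMPs, 1 to 2 for ADAMs, 3 to 5 for ADAMTS proteases and 1 to 2 for binding partners, and the number called higher was 0 to 1 for membrane-type MMPs. Secreted MMPs called lower were 2 with no filter, ADAMTS proteases called higher were 1 with a CPM above 1 in all 8 samples, and ADAMTS proteases called lower were 3 by DESeq2. Single genes of the lists kept their call in 679 of 699 alternatives, with 17 calls lost and 3 gained. The sign changed in 9 of the 699, all of genes not called (*Adam8*, *Adamts3*, *Mug1*, *Itga3* and *Cep295nl*). *Adamts12* was called in 9 and *Adamts10* in 11 of their 16. Ratios moved by less than the spread between replicates in each of their 9 alternatives. The change in share (percentage points) without division by length was 10.6 for *Timp1*, 7.19 for *Timp2*, -18.3 for *Timp3* and 0.518 for *Reck*, the last reversed from -0.555, since long genes then weigh more. With the length of the longest coding transcript it was 2.71 for *Timp2*, -27.5 for *Timp3* and -0.206 for *Reck*. Depth limits *Timp4*, *Mmp9* and *Adamts4*, for which no difference was detectable.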
